A study of Mus musculus with 2 samples.

Results

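The ON bipolar cell signalling cascade was described here through 10 genes of the 47644 in the deposited table, taken by symbol: Trpm1, Nyx, Lrit3, Gpr179, Gnao1, Gng13, Rgs7, Rgs11, Pcp2 and Cabp5. No symbol among them was repeated in the table. RNA came from whole eyeballs of C57BL/6 mice in 1 oxygen-induced retinopathy (OIR) library and 1 control library. The OIR pups entered a closed high-oxygen chamber at 7 days of age, stayed for 5 days, returned to ordinary air, and had their eyes taken on day 17. Of the control animals the labels give the strain, the tissue and the word control, with no oxygen treatment and no separate collection day, and for neither library do they give the number or sex of the animals. By its stated purpose the series addresses lasting visual dysfunction in this model. Gene-assigned reads numbered 20378793 in the OIR library and 15741235 in the control library.

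ON bipolar cells are the retinal interneurons that turn the fall of photoreceptor glutamate at light onset into a depolarisation. In the dark, glutamate acts on the metabotropic receptor mGluR6 (Grm6), whose G protein Go keeps the cation channel TRPM1 closed at the dendritic tip, and light opens the channel by ending this inhibition. The proteins nyctalopin, LRIT3 and GPR179 help to assemble channel, receptor and regulators at the tip, and the proteins RGS7 and RGS11 with the beta subunit Gnb5 shut Go off. In humans, loss of TRPM1, NYX, LRIT3, GPR179 or GRM6 causes complete congenital stationary night blindness, in which the ON response is missing.

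All 10 genes reached an FPKM of 1 in both libraries, the level filter used below, with 55 to 7799 reads in the OIR library and 63 to 7195 reads in the control library. In OIR, 7 of the 10 stood lower and 3 higher. The genes that stood lowest relative to the control were Cabp5, Pcp2, Rgs7 and Gng13, whose ratios of read shares lay between 0.629 and 0.689, and the genes that stood higher were Lrit3, Rgs11 and Gpr179, with ratios of 1.49, 1.28 and 1.12. Each ratio is the gene's share of the OIR reads over its share of the control reads, and equals the ratio of FPKM, the read count scaled by transcript length and library size. The intervals beside the ratios are exact conditional 95% intervals (Clopper-Pearson). They cover counting error only, since reads that carry no molecular identifier can be copies of 1 molecule, and with 1 library a group no spread between animals was measured and no p-value was computed. In a whole-eyeball sample, fewer cells of a type and less RNA per cell cannot be told apart.

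**Figure D1:**
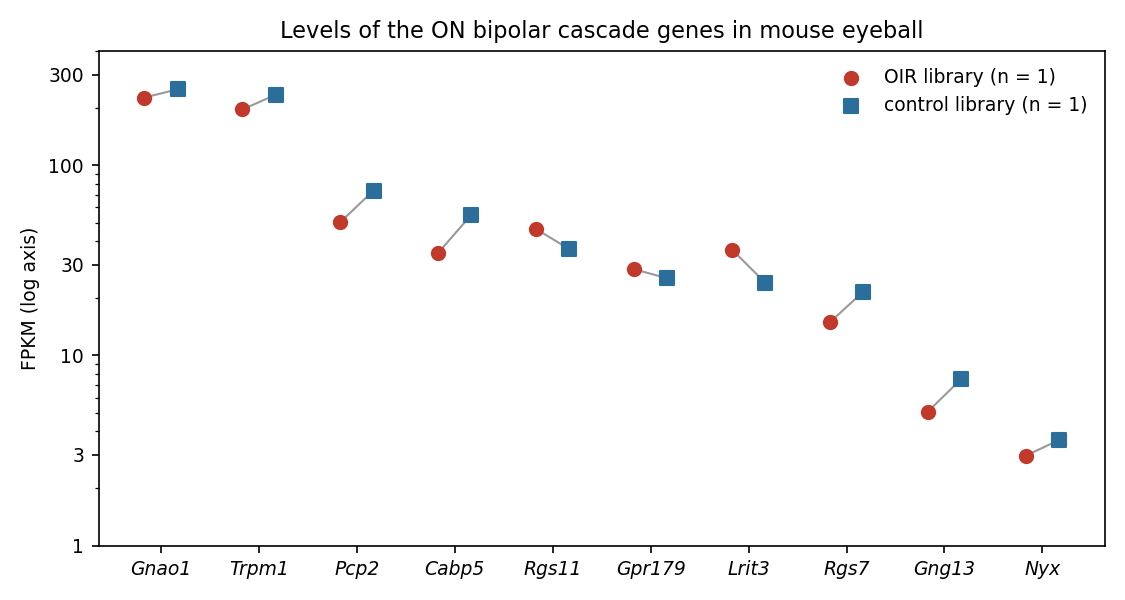
FPKM on a log axis of the 10 cascade genes in the OIR library (circles) and the control library (squares), ordered by the control level; each point is 1 library and grey lines join the points of a gene. Gnao1 and Trpm1 lie highest and Gng13 and Nyx lowest in both libraries, and Rgs11, Gpr179 and Lrit3 are the genes whose OIR point is the higher one.

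The promoters of 4 genes are shown because Cabp5 and Pcp2 had the lowest differences between the libraries, Lrit3 had the highest, and Trpm1 is the channel at the end of the cascade. Each runs from 250 bases before to 50 bases after a RefSeq start site on GRCm38.p6, 5′ to 3′ on the gene's strand, and was the RefSeq promoter nearest to the start of the gene in the deposited table. Capitals mark matches to TAATCC on either strand, a sequence bound by the photoreceptor and bipolar homeodomain proteins CRX and OTX2. The Cabp5 promoter lies at chr7:13397905-13398204 on the plus strand, that of Pcp2 at chr8:3625498-3625797 on the minus strand, that of Trpm1 at chr7:64153585-64153884 on the plus strand and that of Lrit3 at chr3:129804087-129804386 on the minus strand.
Cabp5: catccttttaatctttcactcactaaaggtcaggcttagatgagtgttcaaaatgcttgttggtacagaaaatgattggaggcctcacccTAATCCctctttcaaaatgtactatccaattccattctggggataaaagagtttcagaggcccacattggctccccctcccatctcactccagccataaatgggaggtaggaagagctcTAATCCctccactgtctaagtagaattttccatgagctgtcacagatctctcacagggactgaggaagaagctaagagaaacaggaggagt
Pcp2: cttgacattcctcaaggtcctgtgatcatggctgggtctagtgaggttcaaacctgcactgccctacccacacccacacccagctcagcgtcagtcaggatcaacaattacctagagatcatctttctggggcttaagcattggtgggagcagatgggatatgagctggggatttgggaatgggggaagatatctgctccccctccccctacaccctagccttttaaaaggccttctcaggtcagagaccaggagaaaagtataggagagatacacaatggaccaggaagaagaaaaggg
Trpm1: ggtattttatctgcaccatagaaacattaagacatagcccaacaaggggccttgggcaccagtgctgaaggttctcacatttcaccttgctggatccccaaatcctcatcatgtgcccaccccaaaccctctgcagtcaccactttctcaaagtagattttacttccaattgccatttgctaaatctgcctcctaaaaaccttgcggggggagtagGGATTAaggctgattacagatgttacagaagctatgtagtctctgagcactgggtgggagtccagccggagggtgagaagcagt
Lrit3: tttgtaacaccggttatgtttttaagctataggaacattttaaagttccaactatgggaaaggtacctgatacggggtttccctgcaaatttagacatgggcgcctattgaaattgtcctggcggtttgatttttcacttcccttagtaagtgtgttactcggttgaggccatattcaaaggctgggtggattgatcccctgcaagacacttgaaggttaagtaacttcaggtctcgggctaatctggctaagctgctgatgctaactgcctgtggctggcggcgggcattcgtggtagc
TAATCC occurred 2 times in the Cabp5 window, 160 and 41 bases before the start site, and 1 time in that of Trpm1, as GGATTA, 34 bases before the start site. Among the 9 genes matched to a RefSeq promoter, these 2 held it, and 7.06% of 32851 promoters of the same length did. TAATTA, a homeodomain core that is its own reverse complement, was in none of the 9 windows and in 5.29% of all promoters. ACGTG, the core letters of the hypoxia response element, was in 1 of the 9, that of Rgs7, and in 19.6% of all promoters. The Rgs7 matches overlap on both strands within CACGTG, which is its own reverse complement. These shares count every RefSeq window, of which a gene can have several. The 9 genes have 5 further windows at other start sites, and among these TAATTA occurred in 1 of Pcp2 and ACGTG in 1 of Trpm1. Rgs11 had no matched entry. The start site of the Nyx window lies 5020 bases from the start of the gene in the deposited table, and that of Gnao1 872 bases.

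The channel and its scaffold genes did not all stand on the same side of the control. Trpm1 (ENSMUSG00000030523, mm10 chromosome 7, 64153835 to 64269775) had 7799 reads and 196 FPKM in OIR, against 7195 reads and 235 FPKM in the control. Its read-share ratio was 0.837 (0.811 to 0.865) and its difference of log2(FPKM + 1), OIR minus control, was -0.26. A share of 12.5% of the 15883 genes that reached an FPKM of 1 in 1 or both libraries, called tested genes below although no test was made, had a lower difference. Nyx, which encodes the leucine-rich repeat protein nyctalopin that binds TRPM1 (ENSMUSG00000051228, chromosome X, 13466110 to 13489313), was the least abundant member, with 314 reads and 2.97 FPKM in OIR, against 293 reads and 3.59 FPKM in the control. Its ratio of 0.828 (0.704 to 0.974) was close to that of Trpm1. The FPKM ratio of Trpm1 over Nyx was 66.1 in OIR and 65.3 in the control, and the change in that ratio, 1.01 (0.857 to 1.19), did not leave out 1.

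Lrit3, a second leucine-rich repeat gene, whose protein is needed for nyctalopin and TRPM1 to reach the dendritic tip in mice (ENSMUSG00000093865, chromosome 3, 129787881 to 129804030), stood apart from both. It had 1202 reads and 36.0 FPKM in OIR, against 622 reads and 24.1 FPKM in the control, a ratio of 1.49 (1.35 to 1.65) and a difference of 0.56 on the log2(FPKM + 1) scale. Of the tested genes, 90.0% had a lower difference. Which cells of the eyeball gave the Lrit3 reads was not tested, so its ratios to other members need not be ratios within 1 cell type. The FPKM ratio of Lrit3 over Nyx was 12.1 in OIR and 6.72 in the control, and that of Lrit3 over Trpm1 was 0.183 in OIR and 0.103 in the control. These ratios changed by 1.80 (1.49 to 2.18) and 1.78 (1.61 to 1.98), and ratios within a library do not depend on how the libraries were scaled to each other.

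Gpr179, the orphan receptor that anchors the RGS proteins beside mGluR6 (ENSMUSG00000070337, chromosome 11, 97332109 to 97352077), differed little. It had 3023 reads and 28.4 FPKM in OIR, against 2093 reads and 25.5 FPKM in the control, a ratio of 1.12 (1.05 to 1.18). Its difference of 0.15 lay near the median of all tested genes, 0.11, and became -0.08 when centred within 20 bins of transcript length. Relative to Gpr179, Trpm1 had an FPKM ratio of 6.92 in OIR and 9.22 in the control, a change of 0.750 (0.703 to 0.801).

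The regulators that end the Go signal went opposite ways. Rgs7 (ENSMUSG00000026527, chromosome 1, 175059087 to 175492500) had 507 reads and 14.9 FPKM in OIR, against 568 reads and 21.6 FPKM in the control, a ratio of 0.689 (0.610 to 0.779). Rgs11, found mainly in ON bipolar cells (ENSMUSG00000024186, chromosome 17, 26202951 to 26211324), had 1371 reads and 46.2 FPKM in OIR, against 828 reads and 36.2 FPKM in the control, a ratio of 1.28 (1.17 to 1.40). Of the summed FPKM of this pair, Rgs11 made up 75.6% in OIR and 62.5% in the control. The FPKM ratio of Rgs11 over Rgs7 was 3.10 in OIR and 1.67 in the control, and it changed by 1.85 (1.60 to 2.16).

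RGS7 is also present in many other neurons of retina and brain, and its R7 class relatives did not go 1 way. Rgs6 stood at 17.3 FPKM in OIR and 23.4 FPKM in the control, a ratio of 0.739 (0.657 to 0.832). Rgs9, which ends the transducin signal in photoreceptors, stood at 163 FPKM in OIR and 122 FPKM in the control, a ratio of 1.33 (1.28 to 1.38). Beside Rgs7, most markers of 2 other inner neuron types lay below 0, as did 35.1% of all tested genes. Of 12 amacrine genes 11 lay below 0, with a median of -0.12 and counting intervals that included 1 for 6. Their summed levels were 678 FPKM in OIR and 857 FPKM in the control. Of 12 ganglion cell genes 11 lay below 0, with a median of -0.51 and intervals that included 1 for 2. Their summed levels were 300 FPKM in OIR and 439 FPKM in the control. Every gene of both lists was detected at an FPKM of at least 1 in 1 or both libraries. Their part in the Rgs7 value was not tested.

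The Go subunits among the members were both lower. Gnao1, the alpha subunit of Go and a gene active in most neurons (ENSMUSG00000031748, chromosome 8, 93809966 to 93969388), was the most abundant member, with 5799 reads and 227 FPKM in OIR, against 4948 reads and 251 FPKM in the control. Its ratio was 0.905 (0.871 to 0.940), and its difference of -0.14 turned to 0.04 when centred on the median of the other bipolar cell genes. Gng13, the gamma subunit of ON bipolar cells and also of taste cells (ENSMUSG00000025739, chromosome 17, 25717171 to 25719406), had 55 reads and 5.06 FPKM in OIR, against 63 reads and 7.51 FPKM in the control. Its ratio of 0.674 had the widest interval of the 10, 0.461 to 0.984. The interval of the change in Gng13 over Gnao1, 0.745 (0.508 to 1.09), included 1. Of the 5 taste and tuft cell genes listed beside Gng13, none reached an FPKM of 1 in either library, the highest being Trpm5 at 0.608 in OIR and 0.708 in the control.

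Gnb3, the beta subunit that joins Gng13 in ON bipolar cells and that cones use as well, is no member but the partner with the greatest difference. It had 12974 reads and 507 FPKM in OIR, against 4613 reads and 233 FPKM in the control, a ratio of 2.17 (2.10 to 2.25). The FPKM ratio of Gnb3 over Gng13 was 100.1 in OIR and 31.1 in the control, a change of 3.22 (2.204 to 4.72). Of the 10 cone markers, 5 lay above 0 and 5 below. They ran from -0.48 for Arr3, the cone arrestin, to 0.41 for Pde6c, the cone phosphodiesterase. Their summed level was 550 FPKM in the OIR library and 650 FPKM in the control library. The part of cones in the Gnb3 value was not tested. The remaining beta subunits lay between Gnb1, with a difference of 0.03, and Gnb3.

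Pcp2 and Cabp5 were lower by similar amounts. Pcp2, a modulator of Go alpha that is found in rod bipolar cells and Purkinje cells (ENSMUSG00000004630, chromosome 8, 3623371 to 3625545), had 815 reads and 50.2 FPKM in OIR, against 924 reads and 73.7 FPKM in the control, a ratio of 0.681 (0.619 to 0.749). Cabp5, a calmodulin-like calcium sensor of rod bipolar cells and some cone bipolar cells (ENSMUSG00000005649, chromosome 7, 13398132 to 13408887), had 823 reads and 34.6 FPKM in OIR, against 1011 reads and 55.0 FPKM in the control, a ratio of 0.629 (0.573 to 0.690). Its difference of -0.65 was the lowest of the 10, and 1.99% of tested genes stood lower. The FPKM ratio of Pcp2 over Cabp5 was 1.45 in OIR and 1.34 in the control, with a change of 1.08 (0.948 to 1.24).

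The other tested calcium sensors of the CaBP family also lay below 0. Cabp2 stood at 7.32 FPKM in OIR and 14.5 FPKM in the control, a ratio of 0.505 (0.388 to 0.654), and Cabp1 had a ratio of 0.656 (0.604 to 0.712). Cabp4, which photoreceptors use at their terminals, stood at 75.7 FPKM in OIR and 80.5 FPKM in the control, and its interval of 0.883 to 1.001 included 1. All 4 tested CaBP genes lay below 0, with a median difference of -0.62, where 35.1% of all tested genes lay below 0.

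**Figure D2:**
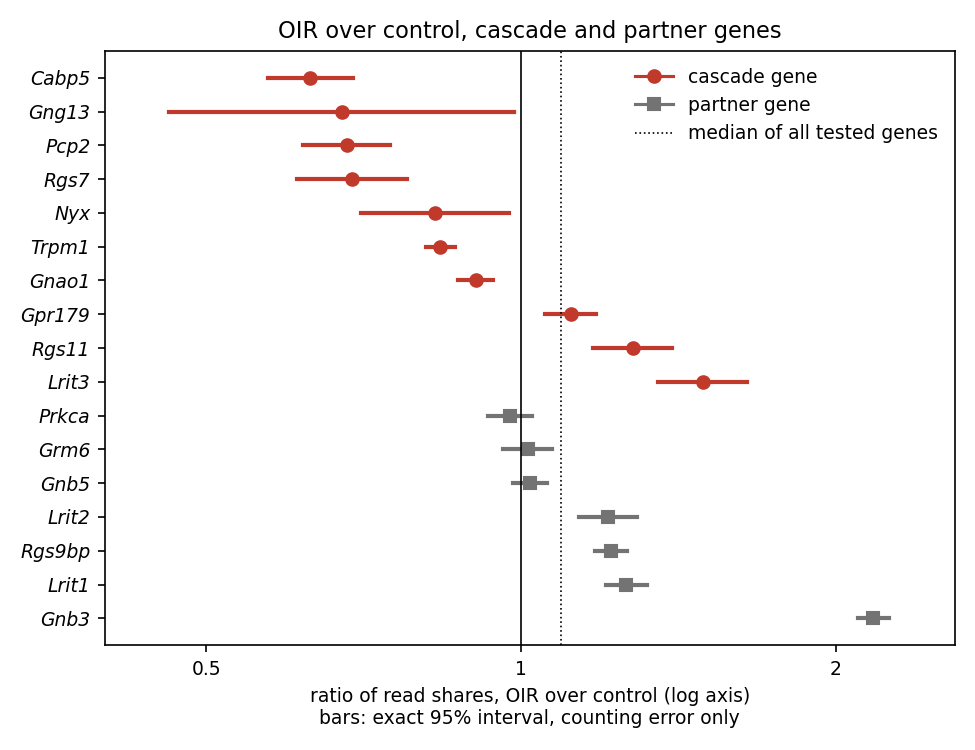
Ratio of read shares, OIR over control, on a log axis for the 10 cascade genes (circles) and 7 partner genes (squares); bars are exact 95% intervals of counting error, the solid line marks 1 and the dotted line the median ratio of all tested genes, 1.09. Cabp5, Gng13, Pcp2 and Rgs7 group between 0.629 and 0.689, while Gnb3 stands at 2.17.

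No member was at least 2-fold lower or higher on the log2(FPKM + 1) scale, a size that 0.718% of tested genes reached as lower and 3.07% as higher. By FPKM ratio, 1 member, Cabp5, was at least 1.5-fold lower, against 4.62% of tested genes, and 0 were at least 1.5-fold higher, against 14.3%, with Lrit3 just short of that bound at 1.49. With each library scaled by the authors' factors, 4 members, Cabp5, Gng13, Pcp2 and Rgs7, were at least 1.5-fold lower. Those factors move every log2 ratio by -0.14, and the share of all tested genes at that size was not taken under them, so the 4.62% is no match for this count. The counting interval left out 1 for all 10 members, below 1 for 7 and above 1 for 3, where it lay below 1 for 14.7% of tested genes and above 1 for 36.7%. Genes with many reads have narrow intervals, so these counts follow depth as well as size. A difference below 0 was found for 7 of 10 members and for 35.1% of tested genes. The median over the members was -0.23, against 0.11 over all tested genes. In the authors' deposited table none of the 10 was marked as up or down, and its log2 fold changes ran from -0.81 for Cabp5 to 0.44 for Lrit3.

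Within the cascade the order of the levels was kept at both ends. Gnao1, Trpm1 and Pcp2 ranked 1, 2 and 3 by FPKM in both libraries, and Rgs7, Gng13 and Nyx ranked 8, 9 and 10. Among the genes between them, Cabp5 ranked 6 in OIR and 4 in the control, while Lrit3 ranked 5 in OIR and 7 in the control. Trpm1 and Gnao1 together held 66.0% of the summed FPKM of the 10 genes in OIR and 66.3% in the control. Of the 45 pairs of members, the ratio within the pair changed beyond counting error for 33. The share over pairs of all tested genes was not taken, so 33 cannot be called a trait of the cascade. Among single tested genes the counting interval left out 1 for 51.5%, and the pairs reuse the same 10 genes and 2 libraries. The 12 pairs whose interval included 1 were Trpm1 with Nyx, all 6 pairs among Cabp5, Pcp2, Rgs7 and Gng13, Gng13 with Trpm1, Nyx and Gnao1, and Nyx with Rgs7 and Gnao1. An interval that includes 1 does not show that 2 genes moved alike, least of all for Gng13 with its few reads.

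The partners of the cascade that were not members stood near the control or above it. Grm6, the glutamate receptor at the head of the cascade, had 3125 reads and 45.8 FPKM in OIR, against 2379 reads and 45.2 FPKM in the control, a ratio of 1.01 (0.962 to 1.07). Prkca, the kinase that marks rod bipolar cells, stood at 61.6 FPKM in OIR and 63.1 FPKM in the control, with a ratio of 0.976 (0.930 to 1.02). Gnb5, the obligate partner of RGS7 and RGS11, had a ratio of 1.02 (0.982 to 1.06), and Rgs9bp, which anchors R7 class RGS proteins, 1.22 (1.18 to 1.26). Lrit1 and Lrit2, relatives of Lrit3, had ratios of 1.26 (1.21 to 1.32) and 1.21 (1.14 to 1.29). Rgs9, the R7 class gene of photoreceptors, stood at 163 FPKM in OIR and 122 FPKM in the control, above both Rgs11 and Rgs7. Which cells gave the reads of the partners was not tested, so their values need not be those of ON bipolar cells. A positive difference was found for 6 of the 7 partners and for 64.9% of all tested genes. The partners had a median of 0.27, against 0.11 over all tested genes. Only Gnb3 passed 2-fold, a size that 3.07% of tested genes reached as higher. The authors' log2 fold changes were -0.12 for Grm6, -0.11 for Gnb5 and -0.17 for Prkca. For Lrit2, Rgs9bp, Lrit1 and Gnb3 they ran from 0.14 to 0.98. The sign for Grm6 and Gnb5 thus depends on how the libraries were scaled. So does the 2-fold call of Gnb3, whose authors' value of 0.98 is short of 2-fold.

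Against Grm6 the members spread widely. The FPKM ratio of Cabp5 over Grm6 was 0.755 in OIR and 1.22 in the control, a change of 0.620 (0.556 to 0.690). Pcp2 over Grm6 was 1.10 in OIR and 1.63 in the control, a change of 0.672 (0.602 to 0.749). Trpm1 over Grm6 was 4.29 in OIR and 5.20 in the control, a change of 0.825 (0.775 to 0.879), while Lrit3 over Grm6 was 0.786 in OIR and 0.535 in the control, a change of 1.47 (1.32 to 1.65).

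Bipolar identity genes outside the cascade were detected in both libraries, and all 20 were tested genes. Of these, 15 lay below 0, as did 35.1% of all tested genes. Their median difference was -0.18, with summed levels of 474 FPKM in OIR and 534 FPKM in the control. They ranged from Cabp2, above, to Lhx4, a transcription factor of cone bipolar cells, at 0.36, with 14.3 FPKM in OIR and 10.9 FPKM in the control.

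Of 20 genes listed for the photoreceptor side of the same synapse, 15 lay above 0, with a median difference of 0.19. That share was close to that of all tested genes, of which 64.9% lay above 0 with a median of 0.11. The list is not particular to photoreceptors, since it includes Cplx3, below. Egflam, whose protein pikachurin links dystroglycan to the bipolar dendrite, was the highest, at 71.5 FPKM in OIR and 45.0 FPKM in the control, a ratio of 1.59 (1.505 to 1.68). Elfn1, the adhesion protein that binds mGluR6 across the cleft, had a ratio of 1.42 (1.32 to 1.52). Cplx3, a complexin of cones and rod bipolar cells, was the lowest, at 60.4 FPKM in OIR and 100.8 FPKM in the control. Rod markers lay around 0, with 10 of 16 above it, a median of 0.05 and summed levels of 21089 FPKM in OIR and 21002 FPKM in the control.

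**Figure D3:**
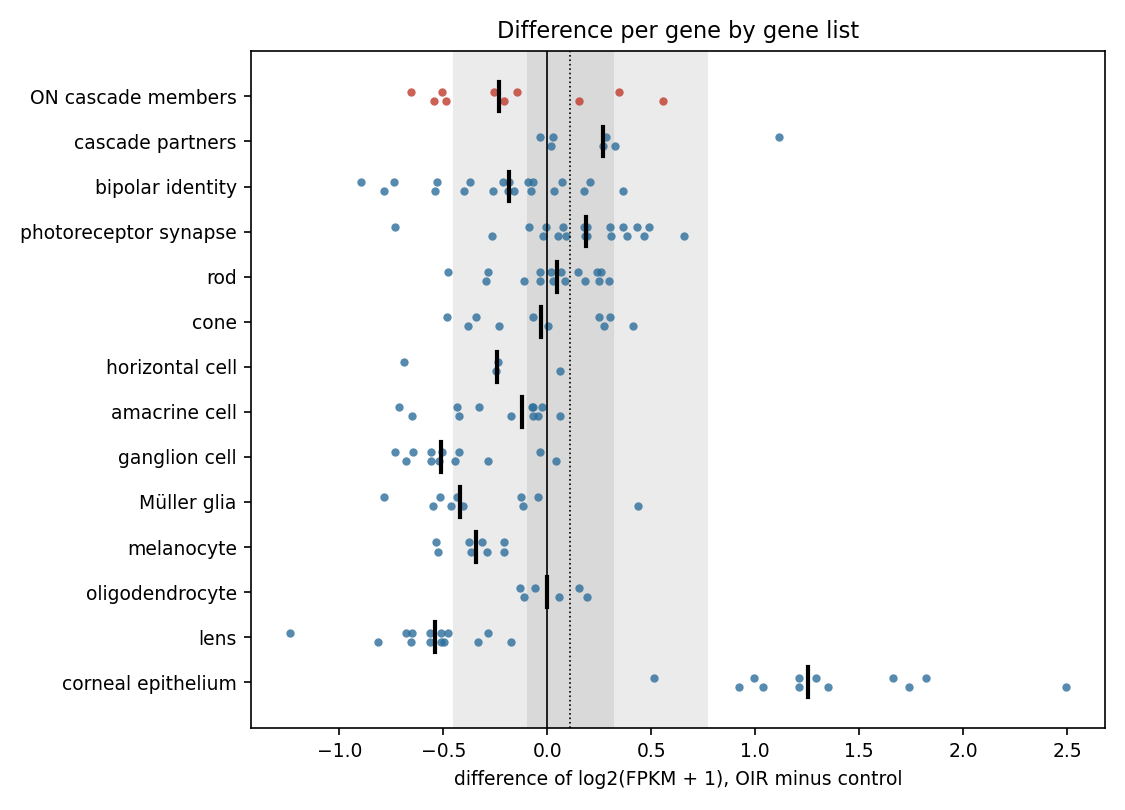
Difference of log2(FPKM + 1), OIR minus control, for each tested gene of 14 lists; dots are genes, black bars are list medians, the dark and light bands hold the middle 50% and 90% of all tested genes and the dotted line is their median, 0.11. The cascade genes spread from -0.65 to 0.56 around a median of -0.23, beside -0.18 for bipolar identity genes and 0.27 for cascade partners.

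Relatives of the members from the same protein families, 32 tested genes, had a median difference of 0.02, with 17 above 0 and 15 below. Among gamma subunits 9 of 11 lay below 0, as did 35.1% of all tested genes. Gng3, a subunit of many neurons, was at least 2-fold lower, at 32.5 FPKM in OIR and 66.3 FPKM in the control. Among the alpha subunits of the Gi and Go class the differences ran from -0.23 for Gnat2, the cone transducin, to 0.49 for Gnaz. Of the 5 tested TRPM channels, Trpm1 was the lowest and Trpm4, at 2.07 FPKM in OIR and 1.17 FPKM in the control, the highest.

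Genes of other tissues of the eyeball, and of Müller glia within the retina, also differed between the libraries, in both directions. TRPM1 is also made by pigment cells, and 8 of 8 melanocyte genes lay below 0, with a median of -0.34 and summed levels of 597 FPKM in the OIR library and 780 FPKM in the control library. The lens list took 9.91% of OIR reads and 13.9% of control reads, and was lower in OIR, while the corneal epithelium list was higher, at 0.221% of OIR reads and 0.0722% of control reads. Müller glia genes lay below 0 for 9 of 10, with summed levels of 3726 FPKM in the OIR library and 4795 FPKM in the control library. Of all tested genes, 35.1% lay below 0. Of the melanocyte, lens, corneal and Müller glia lists, 1 gene, Lim2 of the lens, was at 0 reads in both libraries. The part of these tissues and of Müller glia in the values of the cascade was not tested.

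Transcript length also went with the differences. Per the values, 1 length stands behind each FPKM, and it ran from 533 bases for Gng13 and 797 for Pcp2 to 5183 for Nyx and 5223 for Gpr179. Over tested protein-coding genes the median difference was -0.11 in the shortest of 10 groups of equal size by length and 0.20 in the longest. Measured from the median of its own length group, the difference was -0.67 for Cabp5, -0.62 for Rgs7, -0.44 for Pcp2, -0.41 for Nyx, -0.38 for Gng13, -0.38 for Trpm1, -0.20 for Gnao1 and -0.05 for Gpr179, and 0.46 for Lrit3 and 0.25 for Rgs11. On this measure Nyx and Trpm1 stood level with Gng13 and Pcp2, while as reported above they stood at -0.21 and -0.26. Spearman's correlation of difference with length was 0.442 over the 10 members, which all come from the same 2 libraries, and 0.237 over 13633 protein-coding genes. With the GC content of the transcript it was 0.552 over the same 10 members and -0.02 over those protein-coding genes, so a value over 10 genes can lie far from that over all.

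**Figure D4:**
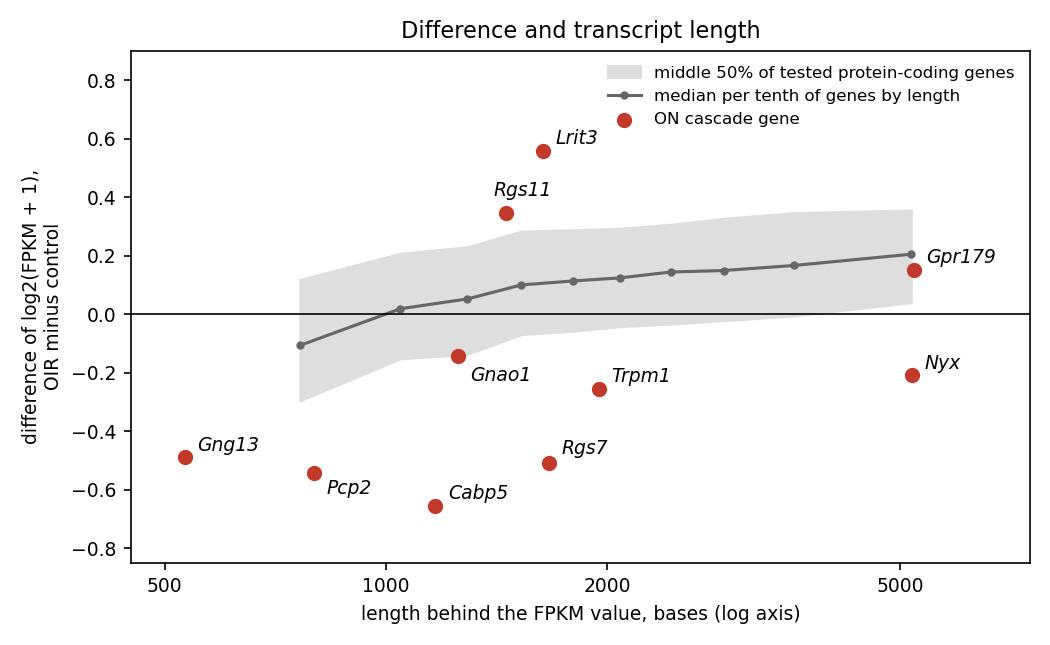
Difference of log2(FPKM + 1), OIR minus control, against the length behind the FPKM value on a log axis; red points are the 10 cascade genes, the line joins the medians of 10 groups of tested protein-coding genes by length and the band holds the middle 50% of each group. Lrit3 and Rgs11 lie above the band, Gpr179 and Gnao1 level with or near it, and Trpm1, Nyx, Rgs7, Pcp2 and Cabp5 below it. The band runs between the median lengths of the shortest and longest groups, 763.5 and 5176 bases. Gng13, at 533 bases, lies left of it, and Nyx and Gpr179 lie just past its right end.

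The levels depend on that length. For Trpm1 it was 1948 bases, while the table's own gene length is 5711, which would give 67.0 FPKM in OIR and 80.0 FPKM in the control. The ratios between the libraries do not depend on it. Exons of 3 members overlap a coding gene on the other strand in GENCODE M21, with the use of strand in counting not given in the sources used here, so their reads are uncertain to that extent. For Gng13 the shared part with Chtf18 is 51.6% of its exon bases, for Pcp2 with Pet100 51.5%, and for Rgs11 with Arhgdig 3.28%. Chtf18 itself had 110 OIR reads and 128 control reads, and Pet100 174 OIR reads and 162 control reads. The gene of miR-211, which lies in an intron of Trpm1 on the same strand, had 4 reads in each library.

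**Figure D5:**
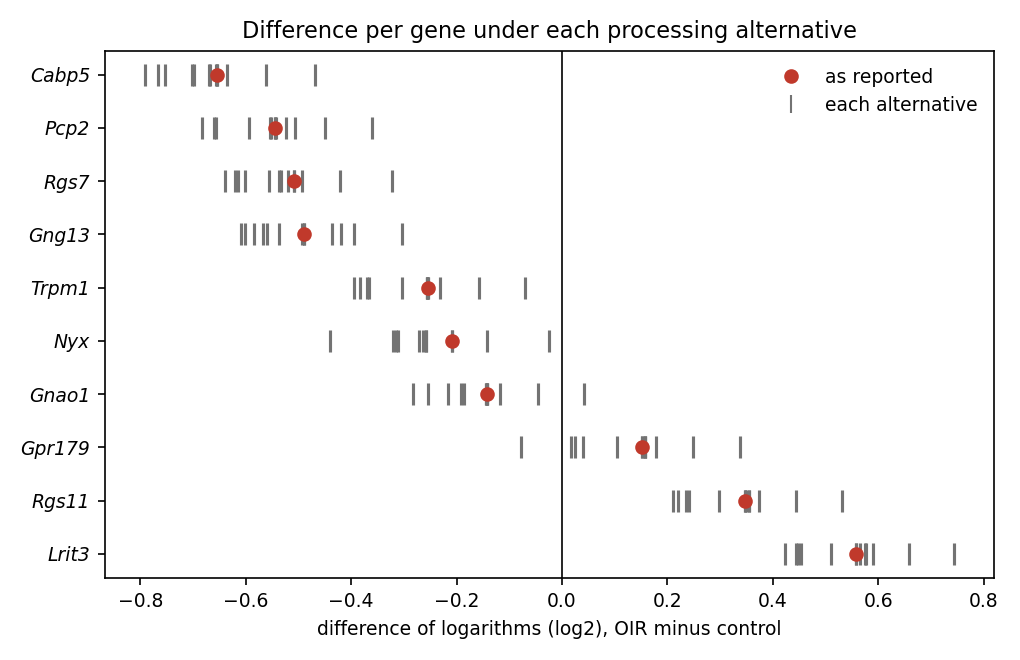
Difference of logarithms, OIR minus control, for each cascade gene as reported (circle) and under each processing alternative (ticks). Cabp5, Pcp2, Rgs7, Gng13, Trpm1 and Nyx stay below 0 and Rgs11 and Lrit3 above 0 under every alternative drawn, while Gnao1 and Gpr179 each cross 0 under 1 of them. The alternatives that change only the pseudocount, the filter or FPKM to CPM could not move a gene across 0.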

How the data were processed

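RNA sequencing of 1 OIR and 1 control mouse eyeball library was compared. HTSeq 0.6.1, TopHat2 2.0.12 and Bowtie2 2.2.3 were used with mm10, per the submitters' processing notes, with settings and annotation not given in the sources used here. The deposited table holds read counts and, per the file headers, FPKM values the authors made per library, with group columns equal to them. It also holds a scaled signal, which the authors made with 1 scaling factor for each library, and the authors' log2 fold changes and p-values, with their tool not given in the sources used here, which compare 1 library with 1 library; the p-values were not used. After 5 broken lines were dropped, 47644 genes remained, and the 15883 that reached an FPKM of 1 in 1 or both libraries were tested genes. Count and FPKM implied the same length, within 0.1%, in both libraries for all 22320 genes that had reads in each.

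Differences are log2(FPKM + 1), OIR minus control, with a pseudocount of 1, which understates the change of low genes. Read-share ratios have exact conditional 95% intervals, and ratios within a library exact conditional odds ratio intervals (scipy 1.17.1, python 3.11.15). The calculation was tested on simulated counts. Other lists hold partners, families and markers. Genes named are all members and partners and the highest and lowest of each list, where informative; Elfn1, Rgs6, Cabp1, Lim2, Trpm5 and genes that overlap a member were added after their values were seen. The members and lists were chosen with earlier results of these data known. Alternatives were pseudocounts, filters, CPM, TPM, the authors' factors and centrings, and GC content was added after seeing the data.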

Additional observations from a re-analysis of the deposited data

How the results depend on the processing

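Across 13 alternatives, 8 of the 10 genes kept their sign. The pseudocounts, the filters and CPM could not change a sign, so only the TPM, authors' factor and centring settings bear on this. Gpr179 turned to -0.08 when centred within bins of transcript length, and Gnao1 to 0.04 when centred on the bipolar identity list. Nyx has no value with an FPKM filter of 5. No alternative put a member past 2-fold. The count of members at least 1.5-fold lower, 1 as reported, was 0 with TPM and when centred on the bipolar identity list, 2 when centred within length bins, 3 when centred on the rod list, and 4 with the authors' factors, when centred on all tested genes and within bins of GC content. The count at least 1.5-fold higher, 0 as reported, was 1, Lrit3, with TPM, with TPM without lens, corneal epithelium and mitochondrial genes, and when centred on the bipolar identity list. The median of the members ran from -0.39 when centred within length bins to -0.05 when centred on the bipolar identity list, and the mean was -0.17. The authors' factors move each log2 ratio by -0.14 and put the median of all tested genes at -0.01. These counts lie close to their bounds, since 4 ratios fall between 0.629 and 0.689. The matching shares of all tested genes were not taken under the alternatives, so the counts show dependence on processing only. No paired analysis was possible because each group holds 1 library. Depth limits Gng13 most, with 55 reads in OIR and 63 in the control.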
